A study of Mus musculus with 6 samples.

Results

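The nuclear-encoded subunits of the mitochondrial respiratory chain and of ATP synthase were followed in mouse aorta. The 44 genes were listed by name: 25 subunits of complex I, 4 of complex II, 6 of complex III, 5 of complex IV and 4 of complex V. All 44 had a probe set that the platform annotation assigns to them alone, as did 19752 genes in all, and where a gene had several, the one with the highest mean over the 6 arrays was kept. Aortas came from mice of 20 weeks on a C57BL/6 background. In the ApoE-KO group (apoe-/-) and in the double knockout group (DKO, apoe-/- and adora1-/-) there were 3 arrays each, numbered 1 to 3, and both groups therefore lack Apoe, which encodes a lipoprotein ligand whose loss makes mice prone to atherosclerosis. Adora1 encodes the adenosine A1 receptor and is not analysed here. No wild-type mice and none lacking Adora1 alone were among the samples. The labels do not say whether an array stands for 1 mouse or for pooled vessels, so the p-values measure the spread between these arrays, which may be technical.

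The respiratory chain passes electrons from NADH and succinate to oxygen in the inner mitochondrial membrane. Complexes I, III and IV pump protons across that membrane as electrons pass, complex II feeds electrons from the citric acid cycle without pumping, and complex V, the ATP synthase, uses the returning protons to make ATP. Most subunits are encoded in the nucleus and imported, while a core set is encoded in mitochondrial DNA. In the artery wall the genes are expressed by smooth muscle, endothelium and any other cells present, and in whole tissue fewer cells of a type and less RNA per cell cannot be told apart.

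All levels are log2 intensities, on which a difference of 1 is a doubling, and every difference is DKO minus ApoE-KO. Mean levels of the subunits ran from 7.96 for Ndufa5 to 12.77 for Cox6c, while the array medians over all 25254 probe sets lay between 8.01 and 8.02. Levels of different probe sets are not on a common scale and are not ranked against each other here.

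None of the 44 subunits passed the test for a difference between the genotypes. With limma across all probe sets and no pairing, the smallest adjusted p among the subunits was 0.861, and 0 of 44 were called at an adjusted p under 0.05, where the background over all probe sets was also 0%. Same-numbered arrays of the 2 groups moved together, so a fit with the replicate number as a block was run as well. It called 0 of 44 subunits too, with a smallest adjusted p of 0.166 for Atp5c1, against 0.174% of all probe sets. The differences were small: their absolute size had a median of 0.049, and they ran from -0.19 for Ndufs6 to 0.20 for Atp5c1.

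The arrays set a limit on the size of what could have been missed. Without the block, 39 of the 44 intervals (95%) lay within 0.5 of 0 in either direction and all 44 within 1, the outermost bounds being -0.70 for Ndufs6 and 0.76 for Ndufa1, or 1.69-fold. With the block all 44 intervals lay within 0.5, and the outermost bounds were -0.33 for Ndufs6 and 0.39 for Ndufa4, or 1.31-fold. SDs within ApoE-KO ran from 0.028 for Atp5b to 0.43 for Ndufa5, with a median of 0.16. Within DKO they ran from 0.013 for Cyc1 to 0.41 for Ndufa1, with a median of 0.13.

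**Figure D1:**
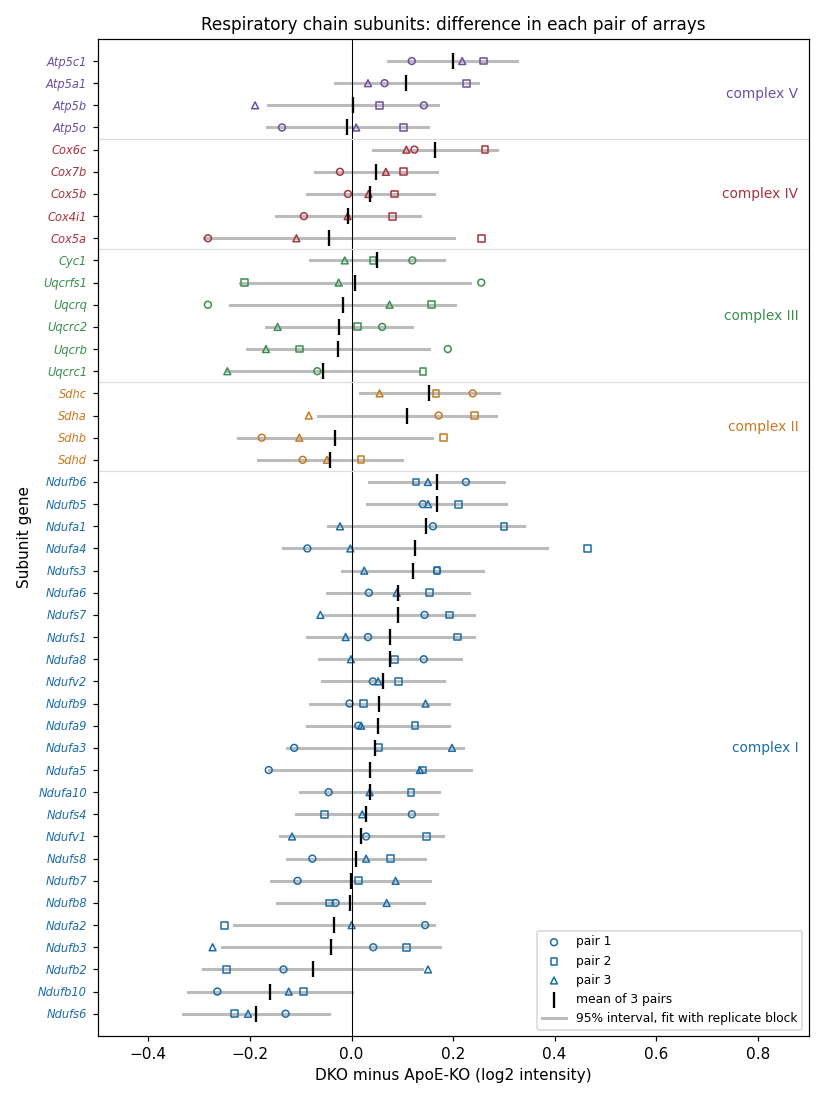
Difference in log2 intensity, DKO minus ApoE-KO, of each of the 44 subunits on the horizontal axis, by complex. Small points are the differences of the 3 same-numbered pairs, the black tick is their mean and the grey bar the 95% interval of the limma fit with the replicate block. Means lie between -0.19 and 0.20, and points of single pairs fall on both sides of 0 in most genes.

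Of the 44 subunits, 28 were higher in DKO and 16 lower, with a median difference of 0.036. Over all probe sets 49.3% were higher and the median was -0.002. The medians of the single pairs were 0.031, 0.106 and 0.014. The split turned with the scaling. After renewed quantile normalization of the deposited values 19 subunits were higher and 25 lower, with a median of -0.014. The median was also below 0, at -0.015, without DKO replicate 1, which leaves the same-numbered ApoE-KO array unpaired, while without both replicate 1 arrays in the block fit it was 0.062. The upper part of the deposited distributions differed slightly between the groups: the 75th percentile of an array was higher in DKO by 0.036, 0.028 and 0.051 in pairs 1, 2 and 3. Its part in the split was not tested beyond that renewed normalization. In all 3 pairs 10 subunits were higher in DKO, against 21.2% of all probe sets, and 2 were lower, against 19.1%. The share of higher subunits, 22.7%, was close to its background, and the share of lower ones, 4.55%, was below it.

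Complex I takes electrons from NADH, and 18 of its 25 listed subunits were higher in DKO and 7 lower. Its median difference was 0.046, with pair medians of 0.029, 0.109 and 0.025. It was -0.014 without DKO replicate 1 and 0.072 without both replicate 1 arrays. Of the 12 subunits that moved one way in all pairs, 8 belonged to complex I: Ndufa6, Ndufa9, Ndufb5, Ndufb6, Ndufs3 and Ndufv2 on the higher side, and Ndufb10 and Ndufs6 on the lower.

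Ndufb5, an accessory subunit of the membrane arm, read 9.55, 9.45 and 9.46 in ApoE-KO replicates 1, 2 and 3, and 9.69, 9.66 and 9.61 in DKO. All DKO arrays were above all ApoE-KO arrays. The difference was 0.17 (95% interval -0.016 to 0.35 without the block and 0.031 to 0.30 with it; limma, adjusted p = 0.862 and 0.234). Ndufb6, another accessory subunit of that arm, stood at 10.47, 9.99 and 10.02 on the ApoE-KO arrays and 10.70, 10.12 and 10.17 on the DKO arrays. Its replicate 1 arrays were the highest of each group, and the groups overlapped although each pair was higher in DKO. The pair differences were 0.225, 0.127 and 0.15, the mean difference was 0.17 (block interval 0.035 to 0.30, limma, adjusted p = 0.223), and without DKO replicate 1 the unpaired value was -0.016.

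Ndufs6, a zinc-binding subunit needed late in the assembly of complex I, had the lowest difference of all 44. Its levels were 9.55, 8.94 and 9.13 for ApoE-KO, against 9.42, 8.71 and 8.93 for DKO. Each pair was lower in DKO, by -0.130, -0.230 and -0.204, while replicate 1 of either group stood above every replicate 2 and 3 array. The mean difference of -0.19 had a block interval of -0.33 to -0.044 (limma, adjusted p = 0.212), and the unpaired value shrank to -0.016 when ApoE-KO replicate 1 was left out and to -0.034 when DKO replicate 2 was. Ndufb10, an accessory subunit, was the other one lower in every pair, at -0.264, -0.094 and -0.124.

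The core electron-transfer subunits of complex I differed little. Ndufv1, which carries the flavin that accepts electrons from NADH, had a difference of 0.02, and Ndufv2, an iron-sulfur subunit beside it, 0.06. Ndufs1, the large iron-sulfur subunit, stood at 0.08, Ndufs3 at 0.12, Ndufs7 at 0.09 and Ndufs8 at 0.01. For Ndufs4, an accessory subunit that stabilises the NADH-binding module, the difference was 0.03. Among the small accessory subunits, the values nearest to 0 were those of Ndufb7 and Ndufb8, both at -0.002. Ndufa4, which is now counted among complex IV subunits by many authors but is kept here under the listed complex, showed the widest spread over pairs, at -0.087, 0.465 and -0.002.

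Complex II oxidises succinate, and its 4 subunits split evenly, with a median of 0.038 and pair medians of 0.038, 0.174 and -0.066. Its median ran from -0.027 to 0.115 with 1 array left out. Sdhc, a membrane anchor of the complex, read 10.99, 10.83 and 11.12 on the ApoE-KO arrays and 11.23, 10.99 and 11.18 on the DKO arrays. Each pair was higher in DKO, by 0.239, 0.166 and 0.055, though the groups overlapped. The difference was 0.15 (block interval 0.016 to 0.29, limma, adjusted p = 0.268). Sdhd, the other membrane anchor, was at 9.52, 9.30 and 9.39 against 9.42, 9.32 and 9.34, a difference of -0.04 with no common direction over the pairs. The flavoprotein subunit Sdha and the iron-sulfur subunit Sdhb had differences of 0.11 and -0.03.

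Complex III hands electrons from ubiquinol to cytochrome c, and 2 of its 6 subunits were higher and 4 lower, with a median of -0.021. The pair medians of 0.090, 0.027 and -0.085 differed in sign, and no subunit moved one way in all pairs. With 1 array left out the median ran from -0.081 to 0.038. Uqcrc1, a core subunit, stood lowest in the complex, with 10.88, 10.67 and 10.99 for ApoE-KO, against 10.82, 10.81 and 10.74 for DKO. Its difference was -0.06 with block bounds of -0.25 and 0.13. Cyc1, the cytochrome c1 subunit, stood highest, at 10.61, 10.71 and 10.76 against 10.73, 10.75 and 10.75. That difference was 0.05, and its DKO arrays were the most alike of all subunits (SD 0.013, n = 3). The Rieske iron-sulfur protein gene Uqcrfs1 had pair differences of 0.255, -0.210 and -0.025.

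Complex IV reduces oxygen to water, and 3 of its 5 listed subunits were higher and 2 lower, with a median of 0.037. Its pair medians were -0.023, 0.102 and 0.033, and the median was 0.145 without ApoE-KO replicate 1. Cox6c, a small structural subunit, read 12.85, 12.52 and 12.68 on the ApoE-KO arrays and 12.97, 12.79 and 12.79 on the DKO arrays. Each pair was higher in DKO while the groups overlapped. The difference was 0.16 (block interval 0.042 to 0.29, limma, adjusted p = 0.203). A second Cox6c probe set gave 0.08 (limma with the block, unadjusted p = 0.197). In that probe set pair 1 was not higher in DKO, with 12.8131 in ApoE-KO and 12.8105 in DKO. Cox5a, another nuclear subunit, was at 9.81, 9.07 and 9.40 for ApoE-KO, against 9.53, 9.33 and 9.30 for DKO. Its pairs disagreed, at -0.283, 0.255 and -0.109, around a mean difference of -0.05. Cox4i1, the ubiquitous form of subunit 4, had a difference of -0.007.

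Complex V had the highest median, 0.055, with 3 of 4 listed subunits higher and pair medians of 0.092, 0.164 and 0.021. That median ran from -0.026 without DKO replicate 1 to 0.161 without ApoE-KO replicate 1, and it was 0.093 without both. Atp5c1, the gamma subunit that turns inside the catalytic head, had the highest difference of all 44. It read 11.34, 11.37 and 11.27 in ApoE-KO (mean 11.33 ± 0.053, SD, n = 3) and 11.46, 11.63 and 11.48 in DKO (mean 11.52 ± 0.092, SD, n = 3). Every DKO array lay above every ApoE-KO array. The difference was 0.20 (95% interval 0.010 to 0.39 without the block and 0.071 to 0.33 with it; limma, adjusted p = 0.861 and 0.166). Atp5o, the stalk subunit that confers oligomycin sensitivity, stood at 10.13, 9.73 and 9.78 against 9.99, 9.83 and 9.79, a difference of -0.008. The catalytic head subunits Atp5a1 and Atp5b had differences of 0.11 and 0.003.

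**Figure D2:**
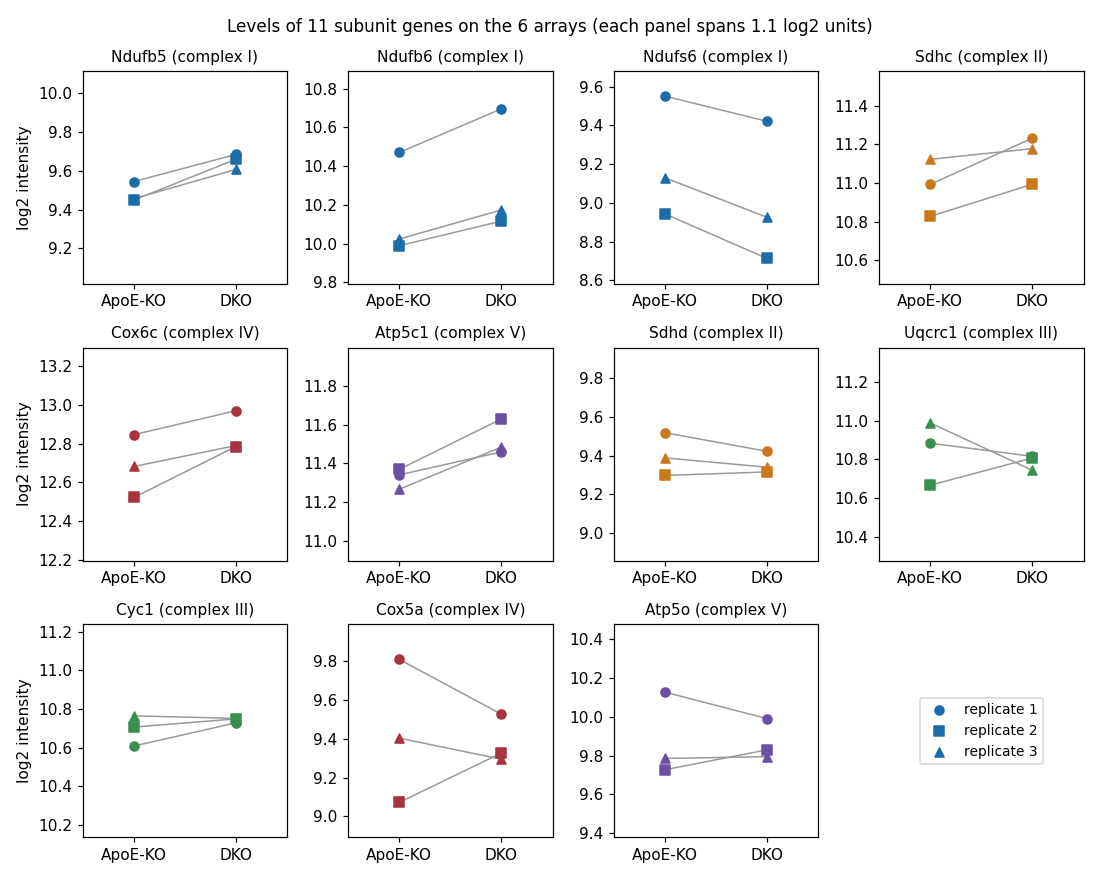
Log2 intensity on the vertical axis of the subunits described with every array value, in ApoE-KO and DKO, with 1 point per array and a line joining arrays of the same replicate number. Atp5c1 and Ndufb5 are the genes in which all 3 DKO points lie above all 3 ApoE-KO points. The replicate 1 line lies above the others in Ndufb5, Ndufb6, Ndufs6, Sdhd, Cox6c, Cox5a and Atp5o.

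Differences with a small unadjusted p were about as frequent as elsewhere on the array. At an unadjusted p under 0.05 without the block there was 1 subunit, Atp5c1, or 2.27%, against a background of 5.62%. With the block there were 6 (13.6%), against 16.2% of all probe sets. Of these, 5 (11.4%) were higher in DKO, namely Ndufb5, Ndufb6, Sdhc, Cox6c and Atp5c1, where the background was 10.1%. The lower one was Ndufs6, or 2.27%, where it was 6.10%. The groups did not overlap in 2 subunits, Ndufb5 and Atp5c1, or 4.55%, against 12.0% of all probe sets. All of these shares were near or below the background.

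For 5 subunits more than 1 probe set names the gene: Ndufs3, Uqcrb, Cox5b, Cox6c and Cox7b. Small respiratory chain genes often have processed copies elsewhere in the genome, so which copy such a probe set reads is uncertain. Within each of the 5 genes all probe sets gave differences of the same sign: 0.12 and 0.11 for Ndufs3, 0.04 and 0.05 for Cox5b, 0.05 and 0.06 for Cox7b, and -0.03, -0.009 and -0.01 for Uqcrb.

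The promoters of Atp5c1 and Ndufb5, in which the groups did not overlap, and of Ndufs6, which had the lowest difference, are printed from 170 bases before to 30 bases after the RefSeq start (build GRCm38.p6), 5′ to 3′ on the gene's strand. Capitals mark matches to the core of NRF1, an activator of many respiratory chain genes, searched as CGCANGCG on both strands.
Atp5c1 (chr2:10080403-10080602, minus strand): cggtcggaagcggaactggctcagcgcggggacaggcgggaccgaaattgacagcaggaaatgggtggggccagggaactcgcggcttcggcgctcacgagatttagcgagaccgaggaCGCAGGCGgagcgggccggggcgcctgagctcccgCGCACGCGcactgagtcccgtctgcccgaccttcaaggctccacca
Ndufb5 (chr3:32736893-32737092, plus strand): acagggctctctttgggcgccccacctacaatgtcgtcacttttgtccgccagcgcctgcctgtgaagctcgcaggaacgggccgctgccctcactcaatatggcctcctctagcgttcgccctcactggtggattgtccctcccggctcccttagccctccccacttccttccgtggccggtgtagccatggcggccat
Ndufs6 (chr13:73328453-73328652, minus strand): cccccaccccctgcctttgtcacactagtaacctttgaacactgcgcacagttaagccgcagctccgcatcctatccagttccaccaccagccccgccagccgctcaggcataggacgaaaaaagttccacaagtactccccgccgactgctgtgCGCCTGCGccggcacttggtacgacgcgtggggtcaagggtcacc
The window of Atp5c1, highest of the 44 in DKO, held 2 whole matches, at bases -51 to -44 and -16 to -9 from the start, and that of Ndufs6, lowest of the 44, held 1 at -15 to -8 on the opposite strand. These letters did not occur in the window of Ndufb5. Atp5c1 had more than 1 listed start, and the window shown is the one with more matches.

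Promoters of 300 bases were given for 33 of the 44 subunits, and Sdhc, Cox4i1, Uqcrb, Cyc1, Uqcrc2, Cox6c, Atp5a1, Ndufb9, Ndufs1, Uqcrq and Ndufa2 had none. The NRF1 core stood in 10 of the 33 (30.3%), against 9.22% of all 27025 genes with a promoter of that length. Beside Atp5c1 and Ndufs6 these were Atp5o, Ndufa5, Ndufa6, Ndufa8, Ndufb10, Sdha, Sdhd and Uqcrc1. The core of YY1 (AAGATGGC), another regulator of mitochondrial genes, stood in 6 (18.2%), against 3.19%. For GABPA, the DNA-binding subunit of nuclear respiratory factor 2, the core CCGGAAG stood in 6 (18.2%), against 9.93%. The estrogen-related receptor site AAGGTCA stood in 2 (6.06%), against 5.38%. Both strands were searched, no core contains another, and the spellings were settled after others had been counted. Median differences between genotypes were 0.014 in subunits with the NRF1 core and 0.036 in those without it.

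The subunits also differed by replicate number. In 29 of 44 (65.9%) replicate 1 was the highest of the 3 arrays in both groups, against 27.4% of all probe sets. In 3 (6.82%), Ndufa10, Uqcrc2 and Cyc1, it was the lowest in both, against 19.7%. Replicate 1 minus the mean of the other numbers had a median of 0.22 over the subunits, above 0 in 36 of 44, and of 0.02 over all probe sets. By complex the medians were 0.22, 0.15, 0.18, 0.21 and 0.19 for complexes I to V. The mean of the 44 subunits was 10.29, 10.04 and 10.12 in ApoE-KO replicates 1, 2 and 3, and 10.31, 10.13 and 10.12 in DKO, so that the 2 replicate 1 arrays were the highest of the 6. No label says what a replicate number shares. After renewed quantile normalization 26 of 44 subunits were highest in replicate 1 of both groups. The share of all probe sets was not counted for that setting.

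**Figure D3:**
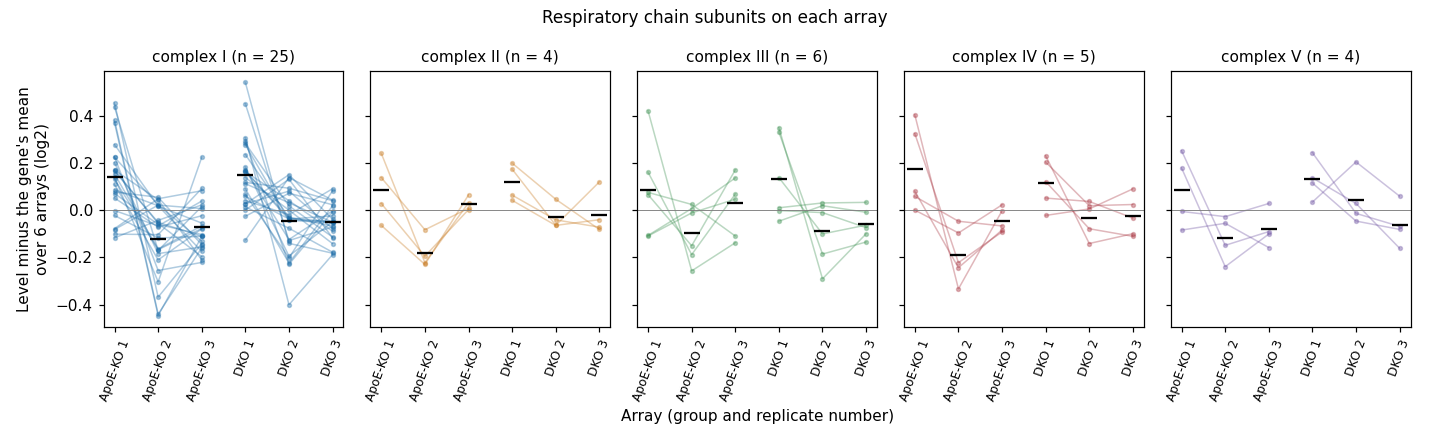
Log2 intensity of each of the 44 subunits minus its mean over the 6 arrays, on the vertical axis, with 1 panel per complex and the arrays along the horizontal axis. Each line joins the 3 arrays of a group for 1 subunit and black ticks are means over subunits, which lie above 0 for replicate 1 of both groups in every panel.

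An F test of the replicate number in the block fit, added after the pattern had been seen, called 8 of 44 subunits (18.2%), against 12.2% of all probe sets. Ndufa1, a small subunit of the membrane arm, had the largest step: it read 8.43, 7.61 and 7.89 on the ApoE-KO arrays and 8.59, 7.91 and 7.87 on the DKO arrays (limma, adjusted p = 0.0133 for the replicate number). Ndufa5, of the peripheral arm, read 8.41, 7.59 and 7.82 against 8.25, 7.73 and 7.95, and Cox4i1 10.62, 10.07 and 10.20 against 10.52, 10.15 and 10.19. In both genes replicate 1 exceeded every other array in either group. Ndufa6, Ndufb6, Ndufs6, Uqcrb and Atp5a1 were the other subunits called. The subunit with the lowest value was Ndufa10, where replicate 1 lay below the others by -0.16.

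Marker genes of several cell types also moved with the replicate number. Smooth muscle markers were highest in replicate 1 of both groups in 7 of 8 genes, with a median of 0.17 for replicate 1 minus the others, and their mean deviation per array ran from -0.11 to 0.10 in ApoE-KO and from -0.04 to 0.13 in DKO. Endothelial markers ran the other way in replicate 1, with a median of -0.44, and all 8 were called by replicate number. So did markers of white fat (-0.47), brown fat (-0.43) and cardiac muscle (-0.48). For skeletal muscle the median was -0.22, but the mean deviation was highest in replicate 3, at 0.57 in ApoE-KO and 0.27 in DKO. Its DKO replicate 1 (-0.20) lay above DKO replicate 2 (-0.27). Lung epithelial markers set replicate 3 apart: Sftpc, a surfactant protein, read 12.32 and 11.92 in replicate 3 of ApoE-KO and DKO and between 6.21 and 6.45 in the other arrays. The part of these tissues in the levels of the subunits was not tested. Without both replicate 3 arrays the median genotype difference of the subunits was 0.039 and 0 were called with the block.

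The defining genes of the aortic media were measured at high levels of the scale: Acta2, smooth muscle actin, lay between 13.97 and 14.06 and Myh11, smooth muscle myosin, between 13.23 and 13.61. Between genotypes the smooth muscle list had a median of 0.051 (6 of 8 higher) and the endothelial list 0.088 (6 of 8 higher). Brown fat markers, whose cells are rich in mitochondria, had a median of -0.13, with 4 of 11 higher and pair medians of -0.299, 0.226 and -0.379. Ucp1, the uncoupling protein that defines brown fat, read 9.62, 9.92 and 10.98 across ApoE-KO against 9.01, 10.15 and 9.60. White fat markers had a median of -0.54 with 7 of 9 lower, and 3 of them (Car3, Retn and Cidec) fell in the block fit (limma, adjusted p = 0.0226, 0.0226 and 0.0467). Their mean deviations ran from -0.06 to 0.53 in ApoE-KO and from -0.62 to 0.14 in DKO. Macrophage markers had pair medians of -0.774, 0.249 and 0.186. The part of these cells in the genotype differences of the subunits was not tested.

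The rest of the respiratory chain was close to the 44. Of 27 further nuclear subunits 21 were higher in DKO and 6 lower, with a median of 0.065. None passed at an adjusted p under 0.05 in either fit, and 5 (18.5%) had an unadjusted p under 0.05 with the block. All 5 were higher, where the background was 10.1% higher and 16.2% in either direction. Among them were Cox7a2, of complex IV (0.34), Ndufs5 (0.28) and Ndufc2 (0.20), of complex I, and Uqcrh, of complex III (0.24), with adjusted block p-values from limma of 0.0885, 0.166, 0.130 and 0.142.

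Isoforms of complex IV and related subunits, most of them tissue-restricted, had 1 of 9 higher, 8 lower and a median of -0.05. The higher one was Cox7a2l (0.01), which is not tissue-restricted. Some of the lower ones were close to 0: Cox6b2 at -0.002, Cox4i2 at -0.004 and Cox7b2, at a low mean level of 5.13, at -0.05. The muscle isoform Cox6a2 had a difference of -0.25 and Cox8b, an isoform of heart, skeletal muscle and brown fat, one of -0.37, and none of the 9 passed in either fit. Their replicate 1 arrays were on the low side, with a median of -0.22, as were those of the fat and cardiac muscle markers above. Cox8b and Cox7a1 were in this list and also among the brown fat markers, so these lists overlap.

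Of the subunits encoded in mitochondrial DNA, ND3, of complex I, and COX2, which holds a copper centre of complex IV, had probe sets of their own. ND3 read 13.09, 13.04 and 13.10 for ApoE-KO, against 13.02, 12.61 and 12.85 for DKO. All DKO arrays were below all ApoE-KO arrays, with a difference of -0.25 (block interval -0.42 to -0.078, limma, adjusted p = 0.183). A second ND3 probe set gave -0.16. COX2 read 13.67, 13.79 and 13.67 against 13.67, 13.47 and 13.57, a difference of -0.14 (adjusted p = 0.346 with the block). Its second probe set gave -0.14 as well, with groups that overlapped. Neither gene passed.

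Proteins that build the complexes were also mostly above 0: 27 of 37 assembly factors were higher and 10 lower, with a median of 0.08. None passed, and 6 (16.2%) had an unadjusted p under 0.05 with the block, all higher. Of all probe sets 10.1% were higher at that threshold, and 16.2% passed it in either direction. Tmem126b, of complex I assembly, had the highest difference, 0.37, with groups that did not overlap (limma, adjusted p = 0.0866 with the block). Coa3, of complex IV assembly, stood at 0.22, and Nubpl and Ndufaf7, both of complex I assembly, at 0.26 and 0.18.

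Regulators of mitochondrial biogenesis split 11 higher to 10 lower with a median of 0.006, and none of the 21 passed. Of the 21, 6 (28.6%) had an unadjusted p under 0.05 with the block, all higher. Over all probe sets the share was 10.1% higher and 16.2% in either direction. The factors whose motifs were searched gave 0.19 for Gabpa, -0.09 for Nrf1, 0.10 for Yy1 and -0.09 for Esrra. The other estrogen-related receptors stood at 0.19 for Esrrg and -0.18 for Esrrb. Gabpb1, the partner subunit of Gabpa, stood at 0.25. Tfam, which packages mitochondrial DNA, read 7.80, 7.28 and 7.25 on the ApoE-KO arrays and 8.13, 7.45 and 7.36 on the DKO arrays. Its replicate 1 arrays were the highest in both groups, as in most of the subunits, and its difference of 0.20 did not pass. Ppargc1a, the coactivator PGC-1alpha, had a difference of 0.17, with replicate 1 the lowest in both groups.

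Among inner membrane carriers 14 of 19 were higher and 5 lower, with a median of 0.07. Nnt, the nicotinamide nucleotide transhydrogenase, had the highest difference of the mitochondrial lists. It read 9.11, 9.33 and 9.20 for ApoE-KO, against 10.13, 10.02 and 9.75 for DKO, groups that did not overlap, and its block p missed the threshold (limma, adjusted p = 0.0503). Slc25a4, the ADP/ATP carrier, stood at 0.19, and Cycs, cytochrome c, at -0.15. Citric acid cycle enzymes were higher in 15 of 17 with a median of 0.03, led by Suclg2, a succinyl-CoA ligase subunit (0.47; limma, adjusted p = 0.0517 with the block), while Mdh2, the mitochondrial malate dehydrogenase, stood at -0.15. None of the members of either list passed in either fit. At an unadjusted p under 0.05 with the block there were 3 carriers (15.8%), all higher. For the citric acid cycle there were 2 (11.8%), 1 higher and 1 lower. The background was 16.2% in either direction and 10.1% higher, so neither share was above the background in either direction.

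Enzymes of mitochondrial fatty acid oxidation were higher in 11 of 14 with a median of 0.03, but their pair medians of 0.077, 0.209 and -0.103 differed in sign. Cpt1a, which commits fatty acids to import, had the highest value, 0.52 (limma, adjusted p = 0.0927 with the block). Mitochondrial ribosome genes were higher in 15 of 25 (median 0.03) and import and outer membrane genes in 12 of 19 (median 0.03), where Tomm20, an import receptor, stood at 0.25 and the channel gene Vdac2 at 0.27. Glycolytic genes, listed as the alternative source of ATP, were higher in 8 of 12 with a median of 0.12. None of the members of these 4 lists passed in either fit. At an unadjusted p under 0.05 with the block there were 5 glycolytic genes (41.7%) and 3 of fatty acid oxidation (21.4%). Import and outer membrane had 4 (21.1%) and the ribosome 1 (4%). All of these were higher in DKO, where the background was 10.1% higher and 16.2% in either direction.

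**Figure D4:**
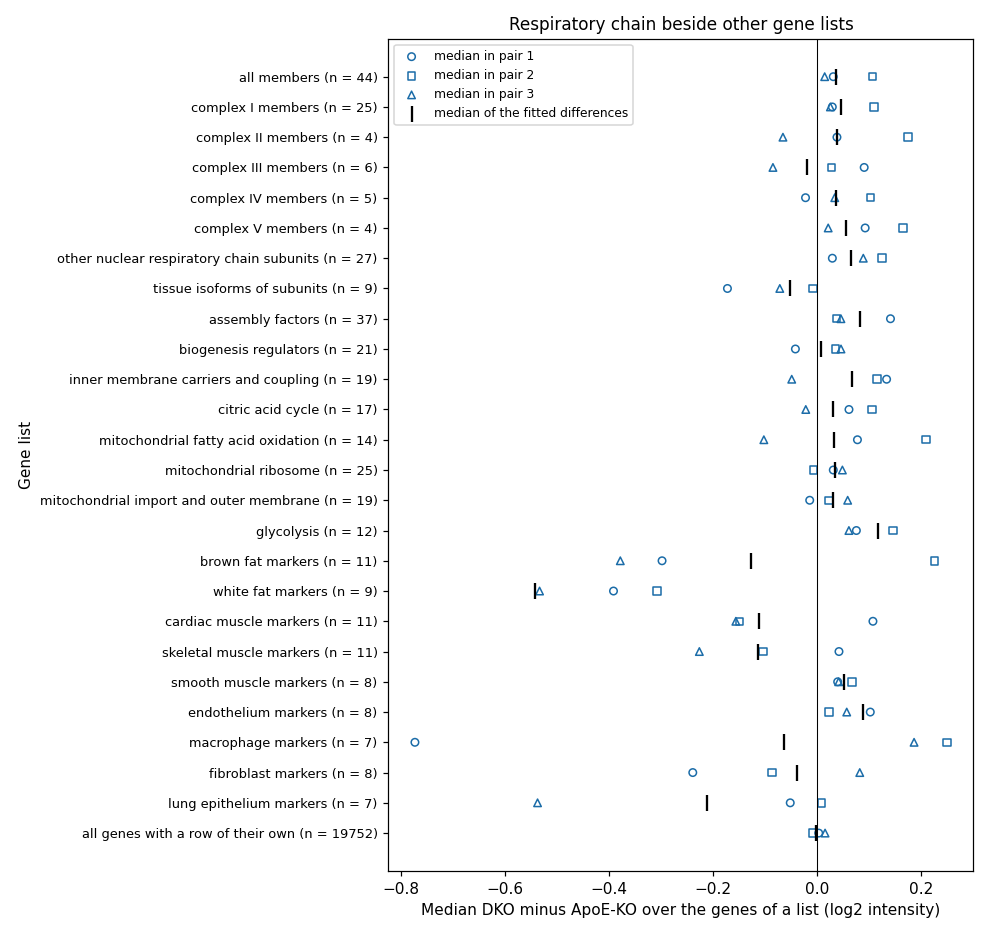
Median difference in log2 intensity, DKO minus ApoE-KO, of each gene list on the horizontal axis, as a black tick, with open points for the medians of the 3 pairs and the number of measured genes beside each name. The 44 subunits lie at 0.036, the further nuclear subunits at 0.065 and the white fat markers at -0.54.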

How the data were processed

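RNA from 6 aorta samples, 3 per genotype, was amplified with a whole-transcript kit and hybridised to Affymetrix arrays, per the labels. The series text names the comparison group as lacking Adora1, whereas each of its sample labels names Apoe, and the sample labels were followed. The values are the log2 intensities that the authors deposited, with RMA, Partek and mm9 in the submitters' processing notes. The sources used here do not give whether batch effects were taken out. No array was left out, and correlations between arrays ran from 0.983 to 0.995.

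All 25254 probe sets were fitted with limma 3.58.1 in R 4.3.3 (lmFit, eBayes with trend), two-sided, with Benjamini-Hochberg adjustment over all of them, calls at 0.05, and every probe set kept whatever its level. The number of arrays limits the precision, and an exact permutation test of 3 against 3 arrays cannot reach 0.05. Same-numbered arrays correlated in their deviations from the group mean at 0.60, 0.50 and 0.64 over all probe sets, so the numbers were taken as pairs from the data, and no label states what they share. Of the probe sets, 21496 name 1 gene, 1565 several and 2193 none, and genes were named only from the first. The members and gene lists were chosen with earlier results of these data known. Named with every array value are the subunits at an unadjusted p under 0.05 in either fit and the lowest and highest of each complex, and up to 4 genes of other lists by smallest p with the block. Further genes were named for their role or for their replicate pattern after their values were seen. Promoters came from a RefSeq table. The limma fits were checked on simulated data. Alternatives were the replicate block, with and without each pair, unmoderated models, median centring, array weights, robust or trend-free eBayes, renewed quantile normalization, filters on level, other rules for choosing a gene's probe set, and each array left out.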

Additional observations from a re-analysis of the deposited data

How the results depend on the processing

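No subunit was called under any of the 21 alternatives, so the replicate block changed the call of none. Over all probe sets 0 were called at first, 44 with the replicate block, 415 with the block without pair 1, 48 with the block without pair 3 and 1 with unmoderated linear models. Leaving out single arrays gave 0 to 8, the 8 without DKO replicate 3. The median of the 44 subunits was -0.014 after quantile normalization and ran from -0.015 to 0.081 with 1 array left out. Such ranges were -0.014 to 0.082 for complex I, -0.027 to 0.12 for complex II, -0.081 to 0.038 for complex III, 0.013 to 0.15 for complex IV and -0.026 to 0.16 for complex V. An array left out leaves its partner unpaired, and what the same-numbered arrays share then enters these values. In the block fit without pair 1 the median of the 44 was 0.062. The medians of complexes II and III also turned in that fit, to -0.014 without pair 2 and to 0.036 without pair 3.

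Directions also turned in single genes. Uqcrc1 was at 0.037 with the replicate block without pair 3 and Cyc1 at -0.0051 after quantile normalization. Cox5a was at 0.073 with the block without pair 1 and at 0.046 with array weights, and Atp5o at 0.056 and 0.027 under the same settings. With 1 array left out, values ran from -0.016 to 0.32 for Ndufb6, -0.094 to 0.017 for Sdhd, -0.15 to 0.014 for Uqcrc1, -0.22 to 0.15 for Cox5a and -0.085 to 0.12 for Atp5o. Ndufb5, Ndufs6, Sdhc, Cox6c and Atp5c1 kept their direction under all 21, but with 1 array left out they ran from 0.15 to 0.20, -0.39 to -0.016, 0.077 to 0.22, 0.084 to 0.25 and 0.15 to 0.23. Of the 44 subunits, 8 were called by replicate number, against 12.2% of all probe sets. The count was 5 with eBayes without trend, 10 above the 40th percentile and 12 above the 60th, all chosen after seeing the data. For these other settings the share of all probe sets was not counted, so their counts have no background beside them. The cause of these shifts was not tested. All 44 subunits lay above the 40th percentile of mean level and 39 above the 60th. With 3 arrays a group, no subunit difference passed after adjustment, and true differences of any size within the intervals given above remain possible. Some block intervals exclude 0, that of Atp5c1 among them, but the intervals are not adjusted for the number of probe sets.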
